A study of Mus musculus with 16 samples.

Results

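The comparison set 14 days against 7 days after spinal cord injury in mice, cell type by cell type, with both genotypes pooled. The mice were taken by the animal numbers in the deposited cell table, 4 at 14 d and 4 at 7 d, which made 8 of the 16 mice and 10299 of the 18203 cells of the series. The study lesioned the dorsal columns of the cervical cord in adult mice and profiled dissociated spinal cord by single-cell RNA sequencing, 1 library per mouse. Both genotypes carried GFAPcreERT2, a tamoxifen-inducible Cre recombinase under the promoter of the astrocyte gene Gfap. Wild-type (WT) mice had the genotype Ryk+/+,GFAPcreERT2, and conditional knockout (cKO) mice had Rykfl/fl,GFAPcreERT2, in which Cre removes the Wnt receptor Ryk from cells that expressed Gfap. All mice were 8 to 10 weeks old, and each time point held 2 WT and 2 cKO mice. The tissue was dissociated with pronase in the presence of actinomycin D, an inhibitor of transcription.

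After injury to the spinal cord, microglia and incoming myeloid cells clear debris, astrocytes become reactive and form a border around the lesion, and fibroblasts lay down collagen-rich matrix in its core. Over the following weeks the early inflammatory signals, among them chemokines that attract monocytes, give way to repair, with new oligodendrocytes maturing from precursors and vessels remodelling. Oligodendrocytes make large amounts of cholesterol for myelin, and glia under stress raise complement genes such as C4b.

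The libraries differed in depth. In the order WT replicates 1 and 2, then cKO replicates 1 and 2, which holds for every series of values from here on, the 7 d libraries held 649625, 3032957, 1236573 and 9008729 UMIs (counted RNA molecules) from 1203, 840, 1786 and 1521 cells. At 14 d they held 3074365, 8786767, 6559483 and 7264837 UMIs from 1014, 1305, 1135 and 1495 cells. The median cell had 414, 2206.5, 548 and 3509 UMIs at 7 d and 2112, 3637, 2676 and 2683 at 14 d. Replicate 1 of each genotype at 7 d was therefore shallow, and these were the 2 mice with animal numbers below 10000, while all 4 mice at 14 d had later numbers. Median mitochondrial UMIs per cell made up 3.28%, 2.27%, 3.11% and 2.22% of the total at 7 d and 2.01%, 2.09%, 1.89% and 1.97% at 14 d, with the shallow libraries highest and the time points not overlapping. Depth, animal number and time cannot be told apart in these 2 mice, so many results are also given for the mice numbered 10000 and above, 2 at 7 d and 4 at 14 d.

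Other features set libraries apart. Xist, expressed in females, stood at 664 CPM (UMIs scaled to the total of the library) in WT replicate 2 at 7 d and at 610.5 in WT replicate 2 at 14 d, and at 12.3 or less in the other 6 mice, so that each time point held 1 mouse with Xist. Of 10251 cell barcodes, 48 occurred in more than 1 of the 8 libraries, and 30 of these were shared by the shallow WT and cKO libraries at 7 d, 2.49% and 1.68% of their cells. The names of the deposited cells, but not the cell table or the sample titles, gave another condition for 6 mice of the series, all replicate 2. Of the 8 mice compared, these names put WT replicate 2 at 7 d in the WT 1 d group, cKO replicate 2 at 14 d in the cKO 7 d group and WT replicate 2 at 14 d in the cKO 14 d group. They also put a mouse from outside the 8, cKO uninjured replicate 2 by its title, in the WT 7 d group. Values given for the conditions of the cell names include that mouse at 7 d, with up to 5 mice at 7 d and 3 at 14 d. Summed over all cells, Ryk itself had 80.0, 68.6, 51.8 and 82.4 CPM at 7 d and 52.0, 69.8, 66.2 and 69.5 at 14 d. Those ranges overlapped, and cKO mice had Ryk UMIs at both times.

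The deposited labels name 17 clusters, and most of them carried the markers of the named cell type. A marker was counted where it lay more than 2-fold above the mean of the other clusters, so it can count in several clusters. By this measure 8 of 8 endothelial markers were above in Cluster 1 and 9 of 10 neuron markers in Cluster 3. So were 9 of 9 and 8 of 9 oligodendrocyte markers in Clusters 4 and 8, and 10 of 10 microglia markers in Clusters 6 and 10. The same held for 8 of 8 pericyte markers in Cluster 9, 8 of 8 precursor markers in Cluster 11, 12 of 12 macrophage and immune markers in Cluster 12, 8 of 8 fibroblast markers in Cluster 14 and 8 of 8 Schwann cell markers in Cluster 15. Among the clusters labelled as astrocytes, Cluster 7 had 10 of 10 astrocyte markers above that level and Cluster 5 had 9 of 10, but Cluster 5 also had 6 of 10 neuron markers. Cluster 2 had 8 of 10 neuron markers against 4 of 10 astrocyte markers and is called by its number. Cluster 13, labelled unknown, had 8 of 8 ependymal markers. Cluster 9 also had 5 of 5 smooth muscle and 8 of 8 endothelial markers above that level, and Cluster 12 had 9 of 9 lymphocyte markers.

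Between 7 d and 14 d, most genes in most cell types had small differences beside the spread among mice. In Cluster 10 microglia the monocyte-attracting chemokine Ccl12 fell, in fibroblasts Sfrp5 fell to no UMIs, and in Schwann cells Fabp7 fell, and these 3 were the genes called by edgeR at an adjusted p under 0.05. Short of that threshold, most tested immediate early genes were above 0 in microglia, and tested MHC class I and interferon response genes were below 0 in Cluster 10. Also short of it, C4b was above 0 in oligodendrocytes and most tested cholesterol synthesis genes there were below 0. Fibroblasts had mostly lower values of fibrotic matrix genes. Neurons made up 22.0% ± 5.46 (SD, n = 4) of cells at 14 d against 10.7% ± 7.30 (SD, n = 4) at 7 d. That difference did not pass the threshold in an exact permutation test, before or after adjustment, and was smaller in the later-numbered mice.

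Ccl12, a ligand of the chemokine receptor Ccr2, lies on chromosome 11 at 82101845 to 82103400 (GRCm38). Its level in Cluster 10 microglia was 167, 197, 88.6 and 146 normalized CPM in the 7 d mice and 42.6, 16.9, 27.1 and 47.9 in the 14 d mice. Each 14 d mouse lay under every 7 d mouse, in both genotypes. The log2 fold change was -2.23 (95% interval -2.96 to -1.49, edgeR adjusted p = 0.0409), and DESeq2 gave -2.20 (adjusted p = 6.0e-04). It was -2.40 in the later-numbered mice. The counts behind it were low, 7, 44, 13 and 35 UMIs at 7 d and 10, 13, 26 and 28 at 14 d, and the edgeR call was lost when WT replicate 1 at 7 d, WT replicate 2 at 7 d, cKO replicate 2 at 7 d, WT replicate 2 at 14 d or cKO replicate 1 at 14 d was left out, with log2 fold changes of -2.20, -1.98, -2.23, -1.96 and -2.11. It was also lost in the later-numbered mice, under the conditions of the cell names, in one fit of all conditions, and with a term for genotype, replicate number or animal number series. With the cell names the log2 fold change was -2.62, with genotype -2.21 and with replicate number -2.19. Ccl12 was the 1 gene called by edgeR among 4628 tested in Cluster 10 (0.0216%).

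In Cluster 6, the other microglial cluster, Ccl12 stood at 186, 127, 169.8 and 49.5 CPM at 7 d and at 50.2, 50, 162 and 27.0 at 14 d. The groups overlapped there, with cKO replicate 1 at 14 d as high as the 7 d mice (log2 fold change -0.67, interval -1.95 to 0.60). It was -1.50 without that mouse and -0.19 in the later-numbered mice. Whether the difference between 14 d and 7 d differs between the 2 microglial clusters was not tested.

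Immediate early genes, transcription factors and feedback regulators that cells induce within minutes of a stimulus, had mostly higher levels at 14 d in microglia. In Cluster 10, 11 of 12 tested members were above 0 and 7 were higher at an unadjusted p under 0.05, with none lower, where 2.2% of all genes tested were higher and 2.48% lower. Their median log2 fold change was 0.75, beside 0.01 over all genes, and 0.53 in the later-numbered mice. Fos, a subunit of the AP-1 transcription factor, had 71.5, 148, 68.1 and 108 CPM at 7 d and 349, 187, 410.2 and 104 at 14 d. The highest values were in WT and cKO replicates 1 at 14 d, and cKO replicate 2 at 14 d lay within the 7 d range. Its log2 fold change was 1.30 (interval 0.42 to 2.18) and 1.06 in the later-numbered mice, and those of Ier3, Junb and Dusp1, the last a phosphatase that turns off MAP kinases, were 1.26, 0.98 and 0.95. None of these passed edgeR's adjustment (Ier3 adjusted p = 0.651).

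Cluster 6 had the same list above 0 in 14 of 14 tested members, with 3 higher at an unadjusted p under 0.05 (1.51% of its 6406 genes were higher and 1.34% lower by that measure). The list's median was 0.50 beside 0.00 over all genes, and 0.30 in the later-numbered mice. Egr1, a zinc finger transcription factor, had 14.3, 141, 72.0 and 118 CPM at 7 d and 301, 236, 215 and 230.4 at 14 d. All 14 d mice were above all 7 d mice, with the lowest value, from 1 UMI, in the shallow WT library (log2 fold change 1.27, interval 0.63 to 1.91, edgeR adjusted p = 1.0, and 0.92 in the later-numbered mice). In Cluster 6 edgeR called 0 genes (0%), with 183 at an unadjusted p under 0.05 and 0 called by DESeq2.

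Genes of MHC class I antigen presentation were below 0 in Cluster 10 in 7 of 7 tested members. Of these, 3 were lower at an unadjusted p under 0.05, where 2.48% of all genes in Cluster 10 were. The list's median was -0.52, and -0.29 in the later-numbered mice. H2-K1, a heavy chain, had 977, 805, 981 and 499.6 CPM at 7 d and 528, 618, 578 and 358 at 14 d. Within each time point cKO replicate 2 was lowest, and the groups overlapped (log2 fold change -0.63, interval -1.19 to -0.07, and -0.30 in the later-numbered mice). Tap1, which carries peptides into the endoplasmic reticulum, was at -1.05.

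Interferon response genes were below 0 in 7 of 7 tested members of 24 in Cluster 10. Of these, 2 were lower at an unadjusted p under 0.05, where 2.48% of all genes in the cluster were. The list's median was -0.69, and -0.47 in the later-numbered mice. Ifitm3, a membrane protein that blocks virus entry, had 119, 121, 149.9 and 87.4 CPM at 7 d and 80.9, 45.5, 21.9 and 22.3 at 14 d. No values were shared by the groups, and WT replicate 1 at 14 d came nearest to the 7 d mice. The log2 fold change was -1.63 (interval -2.46 to -0.81, edgeR adjusted p = 0.637) and -1.44 in the later-numbered mice, and the gene passed the threshold without that mouse, at -1.95 (edgeR adjusted p = 0.0273).

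Damage-associated microglia genes, which phagocytic microglia raise, gave no common direction. In Cluster 10 the list had 8 members above and 14 below 0 with a median of -0.13, but 16 above and 6 below in the later-numbered mice, where the median was 0.24. Gpnmb, a glycoprotein of phagocytic cells, had 2885, 1064, 1636 and 487 CPM at 7 d and 336, 571, 969.7 and 450.1 at 14 d. The 7 d values were spread over the widest range and the groups overlapped (log2 fold change -1.32, interval -2.35 to -0.30, but -0.38 in the later-numbered mice). Spp1, which encodes the secreted protein osteopontin, had 13446, 3648, 10651 and 1312 CPM at 7 d and 3462, 2676, 4638 and 2153 at 14 d. The 2 shallow 7 d libraries were highest, and the log2 fold change was -1.16 (interval -2.39 to 0.07) in all mice and 0.41 in the later-numbered ones.

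The lipid carrier Apoe had 60958, 31102, 80795 and 33233 CPM in Cluster 10 at 7 d and 115640.0, 49985, 36232 and 38679 at 14 d. WT replicate 1 at 14 d was highest, and the log2 fold change of 0.22 (interval -0.76 to 1.21) became -0.30 without it and 0.94 in the later-numbered mice. The lipid receptor Trem2 was at -0.06 (interval -0.73 to 0.61) and its adaptor Tyrobp at 0.35 (interval -0.45 to 1.15), and leaving out WT replicate 1 at 14 d gave -0.40 and -0.24, while the later-numbered mice gave 0.33 and 0.67. The lysosomal protein Cd68 was at -0.19 (interval -0.99 to 0.62) in all mice and 0.60 in the later-numbered ones. P2ry12, a purine receptor of resting microglia, was at -0.32 (interval -0.85 to 0.21), and the 14 tested homeostatic microglia genes had a median of -0.07. Lysosome genes had 5 members above and 22 below 0 (median -0.27) in all mice and 14 above and 13 below in the later-numbered ones.

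In Cluster 6 the damage-associated list had a median of -0.14 in all mice and 0.56 in the later-numbered ones. Apoe was at 0.02 (interval -1.84 to 1.87), Trem2 at -0.17 (interval -0.89 to 0.55), Tyrobp at 0.31 (interval -0.74 to 1.35), Cd68 at 0.10 (interval -0.78 to 0.97), Spp1 at -2.07 (interval -5.67 to 1.54) and P2ry12 at -0.18 (interval -0.74 to 0.39). Of these, Trem2 and Spp1 had the opposite sign in the later-numbered mice (0.44 and 1.98), and Tyrobp, Cd68 and Apoe had the opposite sign without WT replicate 1 at 14 d (-0.41, -0.21 and -0.86). In the later-numbered mice Tyrobp, Cd68 and Apoe were at 1.05, 0.92 and 2.04. The 15 homeostatic microglia genes had a median of -0.06. The macrophage and immune markers, all 12 with UMIs and Lyz2 the most abundant, summed in Cluster 10 to 9476, 7478, 6150 and 2688 CPM at 7 d and to 5516, 2601, 3496 and 4111 at 14 d. Their part in the differences within Cluster 10 was not tested.

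**Figure D1:**
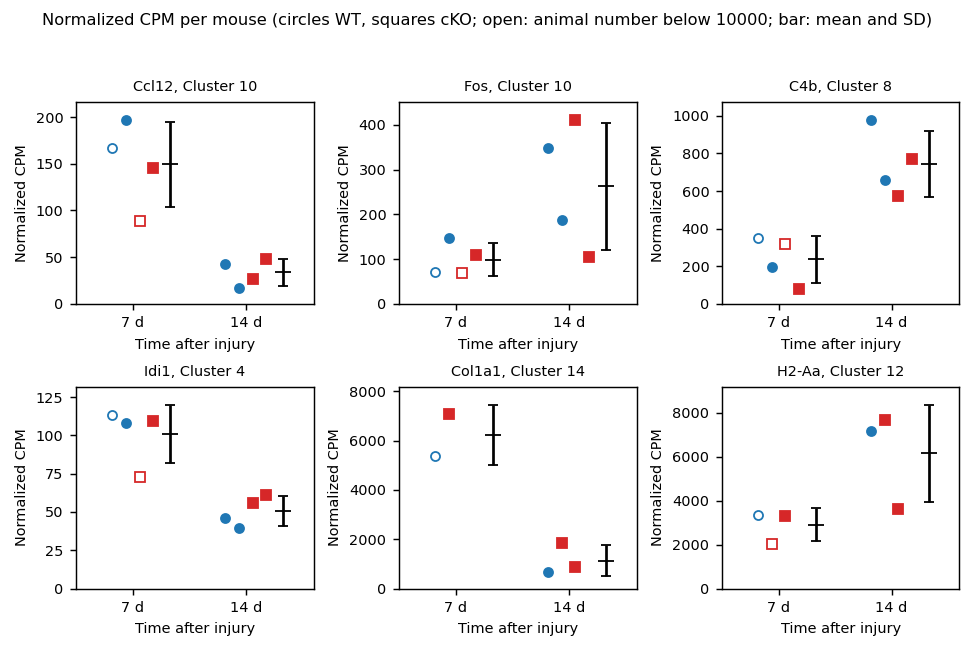
Normalized CPM (vertical axes, from 0) of 6 genes in each mouse at 7 d and 14 d, with circles for WT, squares for cKO, open symbols for animal numbers below 10000, and bars for the mean and SD. The 14 d mice lie below all 7 d mice for Ccl12 in Cluster 10, Idi1 in Cluster 4 and Col1a1 in Cluster 14, and above them for C4b in Cluster 8 and H2-Aa in Cluster 12.

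Complement C4b, a component of the classical pathway, had a log2 fold change above 0 in both oligodendrocyte clusters, without a call by edgeR or DESeq2. In Cluster 8 it had 352, 198, 320.1 and 76.3 CPM at 7 d and 977, 658, 573 and 771 at 14 d. No 14 d mouse overlapped with the 7 d mice, and the log2 fold change was 1.74 (interval 0.85 to 2.63, edgeR adjusted p = 0.999) and 2.79 in the later-numbered mice. In Cluster 4 the values were 146, 86.3, 219 and 66.9 CPM at 7 d and 419.7, 191, 205 and 280.3 at 14 d. There cKO replicate 1 at 7 d lay above 2 of the 14 d mice (log2 fold change 1.12, interval 0.29 to 1.95, and 1.85 in the later-numbered mice). With the conditions of the cell names C4b was at 1.14 in Cluster 8 and 0.68 in Cluster 4.

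Of the immediate early genes, 4 members were tested in Cluster 8, with 3 above and 1 below 0, 2 of them higher at an unadjusted p under 0.05, and a median of 0.73. Jun, an AP-1 subunit, had 82.8, 49.6, 160.0 and 73.9 CPM at 7 d and 269, 182, 242 and 216 at 14 d. Every 14 d mouse was above the highest 7 d mouse (log2 fold change 1.25, interval 0.51 to 1.99, and 1.76 in the later-numbered mice), though the first 2 values at 7 d came from 4 and 2 UMIs. Fos was at 2.92 in Cluster 8, on 1, 2, 7 and 2 UMIs at 7 d. In Cluster 4 Fos was at 1.93, on 0, 1, 6 and 2 UMIs at 7 d. The groups overlapped in both clusters, and the later-numbered mice gave 4.20 and 3.02. Leaving out 1 mouse gave 1.91 to 4.00 in Cluster 8 and 1.75 to 3.18 in Cluster 4, in the 6 and 4 fits that tested it. By unadjusted p under 0.05, 1.16% of 3895 genes in Cluster 8 were higher and 1.31% lower.

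Most tested cholesterol synthesis genes had values below 0 at 14 d in both oligodendrocyte clusters, and none was called. In Cluster 4, 13 of 15 tested members were below 0 and 5 were lower at an unadjusted p under 0.05, where 2.05% of 5114 genes were lower and 1.51% higher, with a list median of -0.55 beside 0.02 over all genes. Idi1, the isomerase that makes dimethylallyl diphosphate, had 114, 108, 72.9 and 109.7 CPM at 7 d and 45.9, 39.2, 56.0 and 61.4 at 14 d. Every 14 d mouse was under every 7 d mouse, with cKO replicate 1 lowest at 7 d (log2 fold change -0.96, interval -1.56 to -0.37, edgeR adjusted p = 1.0, and -1.07 in the later-numbered mice). Insig1, Sqle, Msmo1 and Fdps, a sterol sensor and 3 enzymes of the pathway, were at -1.003, -0.86, -0.91 and -1.03, and at -0.51, -0.44, -0.30 and -0.40 in the later-numbered mice, where the list's median was -0.27. In Cluster 8, 14 of 16 tested members were below 0, none at an unadjusted p under 0.05, with a median of -0.37, and of -0.38 in the later-numbered mice. In those mice alone the list was also below 0 in 13 of 14 members in Cluster 5 (median -0.69) and 14 of 19 in neurons (-0.35). The list's counts in all mice are not given here for Cluster 5 and neurons. Its medians were 0.05 in Cluster 6 and 0.07 in Cluster 7.

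Enpp6, a marker of newly forming oligodendrocytes, had 519, 518, 344 and 128 CPM in Cluster 4 at 7 d and 118, 144, 146 and 155 at 14 d. The 14 d mice were tightly grouped and lay well below all 7 d mice but cKO replicate 2, which was within their range (log2 fold change -1.34, interval -2.14 to -0.55, and -1.08 in the later-numbered mice). Myelin genes gave medians of -0.13 in Cluster 4 and -0.04 in Cluster 8 with all mice, and of 0.14 and 0.31 in the later-numbered ones. EdgeR called 0 genes in Cluster 4 (0%) and 0 in Cluster 8 (0%), with 182 and 96 at an unadjusted p under 0.05 and 0 in each called by DESeq2.

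In oligodendrocyte precursors (Cluster 11), Gm36988, a transcript annotated within an intron, had 152, 305, 159 and 102 CPM at 7 d and 18.9, 5.91, 31.8 and 13.8 at 14 d. All 14 d mice were below all 7 d mice, on 4, 29, 12 and 15 UMIs at 7 d and 1, 1, 10 and 3 at 14 d. The log2 fold change was -3.18 (interval -4.29 to -2.07, edgeR adjusted p = 0.0679), and -3.31 in the later-numbered mice. EdgeR called 0 of 3315 genes there (0%), with 95 at an unadjusted p under 0.05 (0.935% of genes higher and 1.93% lower), while DESeq2 called 1, Gm36988 (adjusted p = 8.9e-04). With replicate number as a block edgeR called it too (adjusted p = 0.0081), 1 of 2 calls there. The oligodendrocyte differentiation list, 17 of 18 members tested, had a median of -0.07.

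Fibroblasts (Cluster 14) were fitted on 2 mice at 7 d and 3 at 14 d, since the others had under 10 cells. Of 5670 genes, 573 had every 14 d mouse above both 7 d mice and 478 had every one below, so a lack of overlap was common there. Sfrp5, a secreted inhibitor of Wnt signals on chromosome 19, had 45.2 and 194 CPM in WT replicate 1 and cKO replicate 2 at 7 d and 0 in WT replicate 1 and both cKO mice at 14 d. The 7 d values rested on 1 and 166 UMIs, and edgeR called the gene lower (adjusted p = 0.0325), the 1 call among 5670 genes (0.0176%). DESeq2 did not call it (adjusted p = 1.0), and edgeR did not under the conditions of the cell names (adjusted p = 0.755) or with a term for animal number series. Without cKO replicate 2 at 7 d or without cKO replicate 1 at 14 d it did not pass the filter on low counts and was not tested, and it was called in the 3 other fits that left out a mouse. The fit without WT replicate 1 at 7 d is 1 of these 3, and with 1 mouse at 7 d its spread came from the 14 d mice alone. Postn, which encodes the matrix protein periostin, had the same pattern, with 45.2 and 131 CPM at 7 d and 0 in all 14 d mice (edgeR adjusted p = 0.066).

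Of 26 tested fibrotic matrix genes, 24 were below 0 in fibroblasts and 14 were lower at an unadjusted p under 0.05, where 1.71% of all genes were lower and 2.12% higher. The list's median log2 fold change was -1.37, also with Postn set to the bound that 3 counts allow, beside 0.11 over all genes. Col1a1, the main chain of fibrillar collagen, had 5376 and 7089.5 CPM at 7 d and 673, 1866 and 855 at 14 d. Both 7 d mice were far above the 3 mice at 14 d (log2 fold change -2.46, interval -3.69 to -1.23, edgeR adjusted p = 0.358, DESeq2 adjusted p = 0.0429). Col3a1 and Col5a2, chains of the same fibrils, were at -2.49 and -2.29, and these 3 genes were the DESeq2 calls in this cluster. Fn1, which encodes fibronectin, had 1807 and 3554 CPM at 7 d and 6391, 2195 and 912 at 14 d, with the groups overlapping (0.22, interval -1.33 to 1.76).

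The growth factor Igf1 had 136 and 471 CPM in fibroblasts at 7 d and 35.0, 31.4 and 51.5 at 14 d, without overlap (log2 fold change -3.16, edgeR adjusted p = 0.0731). It was at -1.70 without cKO replicate 2 at 7 d (edgeR adjusted p = 0.718), and was called in 3 of the 5 fits that left out a mouse. The fit just given, and 1 of the 3 with a call, had 1 mouse at 7 d. The fibroblast markers themselves, 8 of 8 with UMIs and Dcn the most abundant, summed to 28400, 36920, 9692 and 32070 CPM at 7 d and to 3194, 1826, 11130 and 8579 at 14 d, counting also the mice with under 10 cells. Some genes are in both this and the matrix list, and a different make-up of the cluster and lower expression per fibroblast cannot be told apart. The later-numbered mice in this cluster were those of the fit without WT replicate 1 at 7 d, and cKO replicate 2 at 7 d supplied 994874 of its UMIs.

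Schwann cells (Cluster 15) were fitted on 2 mice at each time. Of 633 genes, 83 had both 14 d mice above both 7 d mice and 66 had both below, so a lack of overlap was common there. Fabp7, a fatty acid binding protein of immature glia, had 2469 and 1469 CPM in WT replicate 1 and cKO replicate 2 at 7 d and 0 and 102 in WT replicate 1 and cKO replicate 1 at 14 d. The counts were 6 and 283 UMIs at 7 d and 0 and 3 at 14 d, without overlap (log2 fold change -4.52, interval -6.33 to -2.72, edgeR adjusted p = 6.2e-04). It was the 1 gene called by edgeR among 633 (0.158%), with 0.316% of genes higher and 1.26% lower at an unadjusted p under 0.05. DESeq2 called 0 genes there (adjusted p of Fabp7 0.320), and edgeR without a filter on low counts also called 0. The astrocyte markers, 10 of 10 with UMIs and Slc1a2 the most abundant, summed to 730.6 and 798.8 CPM in the fitted 7 d mice. At 14 d they summed to 143.4 and 272.4 in the fitted mice, and their part in the level of Fabp7 was not tested.

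Immune cells (Cluster 12) were fitted on 3 mice at each time. Of 1338 genes, 50 had all 14 d mice above all 7 d mice and 42 had all below. MHC class II genes, which present antigen to helper T cells, were above 0 in 7 of 7 members, 2 of them at an unadjusted p under 0.05, where 1.35% of 1338 genes were higher and 1.57% lower, with a median of 0.96 beside 0.01. H2-Aa had 3361, 2048 and 3324 CPM at 7 d and 7182, 7673 and 3631 at 14 d. All 14 d values were above the 7 d values, but cKO replicate 2 at 14 d was close to the 7 d mice (log2 fold change 1.08, interval 0.07 to 2.09, edgeR adjusted p = 0.999). The lymphocyte markers, 9 of 9 with UMIs and Cd79a the most abundant, summed in the fitted mice to 271.6, 61.9 and 232.5 CPM at 7 d and to 413, 195 and 1100.0 at 14 d, and their part in these values was not tested. Nor was that of the pericyte markers (0, 30.9 and 48.95 CPM at 7 d, 31.8, 654 and 1698 at 14 d) and the endothelial markers (0, 30.9 and 165 at 7 d, 0, 493 and 1572 at 14 d). Lysosome genes were below 0 in 20 of 20 tested members with a median of -1.36. For the protease Ctsb that came from 1 mouse, with 2040.4, 18683 and 1683 CPM at 7 d and 2700.2, 1315 and 866 at 14 d, cKO replicate 1 at 7 d standing far above the other 5. Without it Ctsb was at -0.10, and Lipa, another lysosomal gene, went from -1.91 to -0.46, and the list was not counted without it. EdgeR and DESeq2 called 0 genes in this cluster (0%), with 39 at an unadjusted p under 0.05 by edgeR.

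Astrocytes had few differences that held across clusters. In Cluster 7, the cluster with the full set of astrocyte markers, the intermediate filament gene Gfap had 551, 942, 941 and 505 CPM at 7 d and 956, 408, 317 and 451 at 14 d. Each time point had both high and low mice and the groups overlapped (log2 fold change -0.47, interval -1.33 to 0.38, also -0.47 in the later-numbered mice). The water channel Aqp4 had 2001, 1651, 1940.3 and 1578 CPM at 7 d and 1076, 1261, 1364 and 1722 at 14 d. In 3 of the 4 mice at 14 d it was below all 7 d mice, and cKO replicate 2 at 14 d was not (-0.38, interval -0.74 to -0.01, edgeR adjusted p = 1.0, and -0.26 in the later-numbered mice).

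Ryk in Cluster 7 had 261, 169, 58.8 and 153 CPM at 7 d and 185, 158, 189.7 and 172 at 14 d, with 2 UMIs in the shallow cKO library that was lowest. The 14 d values lay inside the 7 d range (log2 fold change 0.13, interval -0.36 to 0.61). Other genes of interest in astrocytes had intervals in Cluster 7 that spanned 0 and stayed under 1 on either side. They were the gap junction gene Gja1 at 0.07 (interval -0.37 to 0.52), the calcium binding protein gene S100b at 0.23 (-0.18 to 0.63), the cadherin gene Cdh2 at 0.09 (-0.26 to 0.43), the chondroitin synthesis gene Csgalnact1 at 0.20 (-0.19 to 0.60) and the sulfotransferase gene Chst11 at -0.40 (-0.96 to 0.15). The adhesion molecules Nrcam and Cntn1 were at 0.00 (-0.35 to 0.35) and -0.12 (-0.46 to 0.23), and the vascular growth factor gene Vegfa at 0.14 (-0.32 to 0.60).

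Homeostatic astrocyte genes in Cluster 7 had a median of 0.14, with 2 of 18 higher and 1 lower at an unadjusted p under 0.05, where 1.6% and 1.1% of all 5189 genes were. Mfge8, an opsonin for dying cells, had 87.0, 47.3, 0 and 30.2 CPM at 7 d and 119.5, 74.2, 52.3 and 89.8 at 14 d. WT replicate 1 was the highest mouse at each time and the groups overlapped (log2 fold change 1.16, interval 0.42 to 1.90, and 1.18 in the later-numbered mice). Neither edgeR nor DESeq2 called any gene in this cluster, that is 0 (0%), and 140 had an unadjusted p under 0.05 by edgeR.

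Nuclear genes of oxidative phosphorylation were above 0 in 43 of 46 tested members in Cluster 7, with a median of 0.35 and of 0.47 in the later-numbered mice. There 2 members were higher at an unadjusted p under 0.05 and none lower, where 1.6% of all genes were higher and 1.1% lower. In endothelial cells the list was above 0 in 46 of 47 members, with a median of 0.34. Its value there in the later-numbered mice is not given here. Neurons had the same list below 0 in 43 of 46, 4 of them at an unadjusted p under 0.05 where 1.86% of all genes in neurons were lower and 2.37% higher, with a median of -0.29 and of -0.41 in the later-numbered mice. The mitochondrially encoded genes, whose products join the same complexes, had a median of -0.75 in neurons (14 of 15 below 0, 8 at an unadjusted p under 0.05). Their medians were -0.74 in Cluster 4 oligodendrocytes and -0.65 in Cluster 6 microglia, and edgeR called none of them in these fits of all mice. In the later-numbered mice those medians were -0.44, -0.46 and 0.16. The share of mitochondrial UMIs per cell was highest in the shallow 7 d libraries in all cells, and its part in these medians was not tested.

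In Cluster 5, which carried neuron as well as astrocyte markers, all 10 tested reactive astrocyte genes were below 0 with a median of -0.48, but 8 of 11 were above 0 in the later-numbered mice, where the median was 0.35. Gja1 had 1599.9, 1364, 2296 and 1554 CPM at 7 d and 971, 1107, 1179 and 989 at 14 d. The groups did not overlap (log2 fold change -0.67, interval -1.47 to 0.13, edgeR adjusted p = 0.928, and -0.48 in the later-numbered mice). Aqp4 was at -1.06 (interval -2.05 to -0.07), with the 2 shallow 7 d libraries highest, and at -0.35 in the later-numbered mice. Gfap at -0.49 (-1.50 to 0.52), S100b at 0.48 (-0.56 to 1.51) and Vegfa at -0.20 (-0.99 to 0.59) had the opposite sign in the later-numbered mice, at 0.35, -0.11 and 0.20.

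Cdh2 and Csgalnact1 stood at -0.79 (interval -1.73 to 0.15) and -1.004 (-2.11 to 0.11) in Cluster 5, and at -0.06 and -0.23 in the later-numbered mice. Nrcam, Cntn1 and Ryk were at -0.48 (-1.27 to 0.31), -0.38 (-1.13 to 0.37) and -0.19 (-0.88 to 0.51), and at -0.035, -0.17 and -0.19 in the later-numbered mice. Malat1, a long RNA retained in the nucleus, had 41596, 5681, 38112 and 6479.9 CPM at 7 d and 7338, 4851, 4849.8 and 4134 at 14 d. The shallow 7 d libraries were far above the other 6, and the log2 fold change of -2.11 became -0.21 in the later-numbered mice. In Cluster 5 edgeR called 0 of 2910 genes (0%), with 121 at an unadjusted p under 0.05 (0.825% higher and 3.33% lower), while DESeq2 called 17, all lower and Malat1 among them (adjusted p = 0.0372). Neuron markers there, 10 of 10 with UMIs and Snap25 the most abundant, summed to 281.5, 1822, 355 and 1728 CPM at 7 d and to 1136, 2431, 1979 and 2037 at 14 d, and their part in these values was not tested.

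Cluster 2 was fitted on 3 mice at 7 d and 4 at 14 d. Of 1500 genes, 57 had all 14 d mice above all 7 d mice and 28 had all below. The endothelial markers, 8 of 8 with UMIs and Flt1 the most abundant, summed to 15320.0, 16.4 and 355 CPM in the fitted 7 d mice and to 470.3, 128, 179 and 129.9 at 14 d. The first of these, WT replicate 1, held 14 cells and 4570.0 UMIs in the cluster, and its part in the values below was not tested. Nrcam had 231, 159 and 233 CPM at 7 d and 318, 371, 429 and 301 at 14 d. Each 14 d mouse was above each 7 d mouse, with 1 UMI behind the first value (log2 fold change 0.78, interval -0.10 to 1.65, and 0.78 in the later-numbered mice). Gfap was at -0.03 (-0.83 to 0.77), Aqp4 at -0.06 (-0.84 to 0.72), Gja1 at -0.38 (-1.16 to 0.39), S100b at 0.33 (-0.62 to 1.27) and Cntn1 at 0.14 (-0.65 to 0.94), and Ryk did not pass the filter on low counts. EdgeR and DESeq2 called 0 of 1500 genes (0%), with 48 at an unadjusted p under 0.05 by edgeR (1.67% higher and 1.53% lower).

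Endothelial cells (Cluster 1) gave the narrowest intervals, reaching a median of 0.53 on the log2 scale to either side of the estimate. The Vegf receptor gene Flt1 had 6377, 7078, 6728 and 7446 CPM at 7 d and 7053, 7310.3, 6812 and 7146 at 14 d. The 14 d values lay inside the 7 d range (log2 fold change 0.04, interval -0.25 to 0.32). Kdr, the main signalling receptor for Vegf, was at 0.25 (-0.12 to 0.63) and the tight junction gene Cldn5 at -0.03 (-0.38 to 0.33). The 24 barrier genes had a median of 0.04, with none at an unadjusted p under 0.05.

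Of 22 tested angiogenic endothelial genes, 1 was higher and 3 lower at an unadjusted p under 0.05, where 2.01% and 2.03% of 9465 genes were, with a median of -0.01. Sox17, a transcription factor of arterial cells, had 248, 234, 267 and 226 CPM at 7 d and 181, 203, 208 and 191 at 14 d. No 14 d mouse reached the lowest 7 d mouse, by a small margin (log2 fold change -0.30, interval -0.59 to 0.00, edgeR adjusted p = 1.0, and -0.23 in the later-numbered mice). Aplnr, the apelin receptor of sprouting vessels, had 18.2, 56.7, 25.7 and 6.25 CPM at 7 d and 13.2, 4.36, 6.92 and 4.63 at 14 d. The groups overlapped, with the highest value in WT replicate 2 at 7 d (-2.09, interval -3.61 to -0.58, and -2.18 in the later-numbered mice, but -0.77 without that mouse). Angpt2, a ligand that loosens vessel walls, was at 0.66 and the growth factor binding protein gene Igfbp3 at -1.52.

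Immediate early genes in endothelial cells were below 0 in 19 of 19 tested members, 3 at an unadjusted p under 0.05, with a median of -0.66, but of -0.04 in the later-numbered mice, 9 above and 10 below 0. Klf2, a factor that vessels induce under flow, had 1240.3, 388, 1089 and 487 CPM at 7 d and 369.7, 422, 519.9 and 376 at 14 d. The 2 shallow libraries were far above the other 6, which overlapped, and its log2 fold change of -0.89 became -0.06 in the later-numbered mice. The part of depth in this was not tested.

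Meg3, a long non-coding RNA that is abundant in neurons, had 48.4, 37.8, 15.4 and 36.9 CPM in endothelial cells at 7 d and 149, 102, 61.3 and 111 at 14 d. All 14 d mice were above all 7 d mice (log2 fold change 1.53, interval 0.94 to 2.12, edgeR adjusted p = 0.432, and 1.47 in the later-numbered mice). DESeq2 called this 1 gene (adjusted p = 0.0148), and edgeR 0 (0%), with 382 genes at an unadjusted p under 0.05. EdgeR called it without WT replicate 1 or without cKO replicate 1 at 14 d, at 1.36 and 1.73 (adjusted p = 0.0275 and 0.0448). The 10 neuron markers all had UMIs in the cluster and summed to 208, 244.6, 143.6 and 248 CPM at 7 d and to 349.8, 345.8, 260.4 and 353 at 14 d. Meg3 is among them and the most abundant here, so its own difference is part of these sums. The part of RNA from neurons in the level of Meg3 was not tested.

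Pericytes (Cluster 9) had 14 of 16 tested pericyte genes above 0, none at an unadjusted p under 0.05, with a median of 0.38 and of 0.21 in the later-numbered mice. The smooth muscle markers, 5 of 5 with UMIs and Acta2 the most abundant, summed in this cluster to 7335, 4857, 2385 and 2895 CPM at 7 d and to 12680.0, 3211, 9315 and 2843 at 14 d. Their part in the pericyte values was not tested. Flrt2, an adhesion molecule that also acts in axon guidance, had 208, 166, 53.5 and 109 CPM at 7 d and 5.74, 37.6, 0 and 41.1 at 14 d. The groups did not overlap (log2 fold change -2.39, interval -3.51 to -1.27, edgeR adjusted p = 1.0, and -2.42 in the later-numbered mice). Cdkn1a, an inhibitor of the cell cycle, was at 1.55, with overlapping groups and the highest value, 344 CPM, in WT replicate 1 at 14 d. Leaving out 1 mouse gave 0.92 to 1.84. In pericytes edgeR and DESeq2 called 0 of 5010 genes (0%), with 119 at an unadjusted p under 0.05 by edgeR (1.04% higher and 1.34% lower). The same tools called 0 of 2433 genes (0%) in Cluster 13, with 65 at an unadjusted p under 0.05 by edgeR (1.23% higher and 1.44% lower) and intervals that reached a median of 1.01 to either side.

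C4b in neurons (Cluster 3) had 34.0, 38.9, 0 and 29.5 CPM at 7 d and 63.5, 74.9, 98.6 and 80.8 at 14 d. The groups did not overlap, although the shallow 7 d libraries held 1 and 0 UMIs (log2 fold change 1.36, interval 0.71 to 2.01, edgeR adjusted p = 0.459, and 1.29 in the later-numbered mice). Without WT replicate 1 at 14 d the gene passed the threshold, at 1.42 (edgeR adjusted p = 0.0288), 1 of 11 genes that did. With the conditions of the cell names C4b was at 0.74. In the fit of all 8 mice edgeR called 0 of 8595 genes (0%), with 364 at an unadjusted p under 0.05 (2.37% higher and 1.86% lower), and DESeq2 called 2, both mitochondrially encoded and lower.

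Damage-associated microglia genes were above 0 in neurons in 10 of 12 tested members, 5 at an unadjusted p under 0.05, with a median of 0.60 and of 0.58 in the later-numbered mice. They included Tyrobp at 1.12, the lysosomal protease gene Ctsd at 0.97, Apoe at 0.90 and Igf1 at 1.35, genes that are abundant in microglia, and the part of RNA from microglia in these values was not tested. Heat shock genes were below 0 in 9 of 10 tested members, with a median of -0.40. In the later-numbered mice alone, immediate early genes in neurons were below 0 in 10 of 11 tested members, with a median of -0.96. The counts of that list in neurons of all mice are not given here. Of the 11 members tested in the later-numbered mice, 4 were lower at an unadjusted p under 0.05, where 315 of 11388 genes were.

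**Figure D2:**
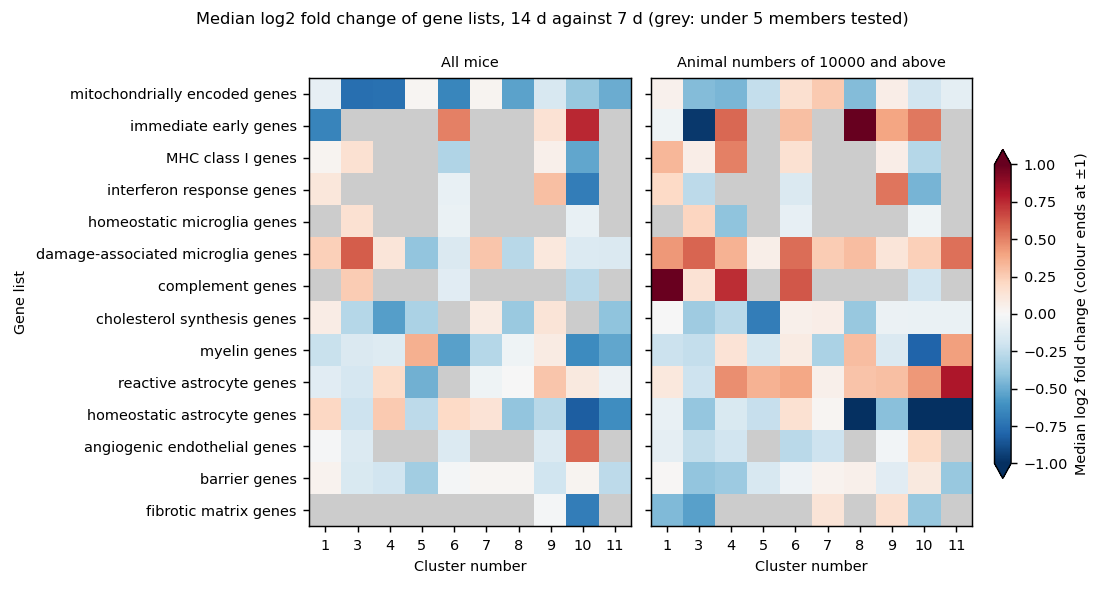
Median log2 fold change of 14 gene lists (rows) at 14 d against 7 d in 10 clusters (columns), in all mice on the left and in the mice numbered 10000 and above on the right, with grey where under 5 members were tested and colours ending at 1 on either side of 0. Immediate early genes in Cluster 10 microglia (0.75 and 0.53) have the same direction on both sides, and in endothelial cells the list's median goes from -0.66 to -0.04.

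The make-up of the libraries was compared by the share of each mouse's cells in each cluster, with an exact permutation test (two-sided, 70 arrangements of 4 against 4 mice, smallest possible p 0.0286). Neurons made up 4.74%, 18.7%, 4.31% and 15.1% of cells at 7 d and 14.0%, 24.4%, 26.2% and 23.5% at 14 d. The shallow 7 d libraries were lowest and WT replicate 1 at 14 d fell within the 7 d range. The difference was 11.3 points (exact p = 0.0857, adjusted over 17 clusters 0.486) and 5.12 points in the later-numbered mice.

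Cluster 8 oligodendrocytes made up 5.65%, 4.64%, 6.38% and 4.41% of cells at 7 d and 2.86%, 2.76%, 3.88% and 4.15% at 14 d. The groups did not overlap, and the difference of -1.86 points had the smallest p the exact test can give, 0.0286, but 0.486 after adjustment. In the later-numbered mice the difference was -1.11 points. Endothelial cells made up 29.3%, 24.6%, 20.4% and 18.0% at 7 d and 20.7%, 16.4%, 15.9% and 17.7% at 14 d, a difference of -5.42 points with overlapping groups (exact p = 0.114).

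Cluster 6 microglia made up 13.5%, 6.31%, 22.4% and 3.22% of cells at 7 d and 8.78%, 4.29%, 4.85% and 3.41% at 14 d. The shallow 7 d libraries were highest, and the difference was -6.03 points in all mice (exact p = 0.257) and 0.566 points in the later-numbered ones. Of the cells in both microglial clusters, Cluster 10 made up 28.9%, 47.5%, 30.4% and 42.4% at 7 d and 44.0%, 54.5%, 57.4% and 62.5% at 14 d. WT replicate 1 at 14 d lay below WT replicate 2 at 7 d, and the others did not overlap. The difference was 17.3 points (exact p = 0.0571) and 9.65 points in the later-numbered mice, but -6.72 points when cells with under 1000 UMIs were left out.

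Among the cells labelled as astrocytes, Cluster 7 made up 57.5%, 24.6%, 55.5% and 28.2% at 7 d and 31.8%, 19.6%, 19.0% and 23.7% at 14 d. The shallow libraries were again apart from the rest, and the difference of -18.0 points (exact p = 0.114) was -2.91 points in the later-numbered mice. Cluster 2 differed by 9.88 points (exact p = 0.229) and Cluster 5 by 8.08 points (exact p = 0.143), but Cluster 2 by -0.673 points in the later-numbered mice and Cluster 5 by -10.5 points in cells with 1000 UMIs or more. No share passed the threshold after adjustment, with 1 of 17 at its unadjusted exact p under 0.05. Even a cluster at the smallest possible exact p could not pass after adjustment unless many other clusters were there too. The adjusted result therefore does not tell whether a share differed.

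**Figure D3:**
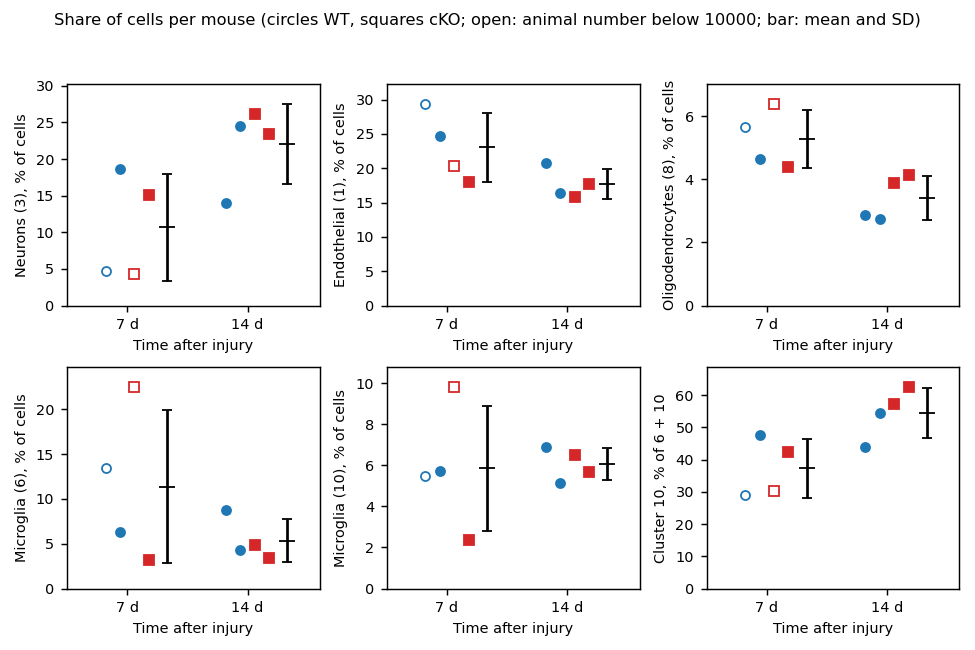
Percent of each mouse's cells (vertical axes, from 0) in 5 clusters, and Cluster 10 as a percent of the cells of Clusters 6 and 10, at 7 d and 14 d, with circles for WT, squares for cKO, open symbols for animal numbers below 10000, and bars for the mean and SD. Both open symbols are lowest for neurons and highest for Cluster 6 microglia at 7 d.

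Whether the 2 genotypes differed in their change from 7 d to 14 d was asked with an interaction term. In Cluster 7 edgeR called 1 gene, Gm48606, a long intergenic non-coding RNA, with 29.0, 3.94, 29.4 and 124 CPM at 7 d and 97.8, 228, 173 and 170.2 at 14 d. The values at 7 d rested on 1, 1, 1 and 111 UMIs, and cKO replicate 2 was the 1 high mouse there. Without it the gene was called higher at 14 d over both genotypes, at 4.12 (edgeR adjusted p = 3.3e-04), against 1.20 (interval -0.28 to 2.69) with it. The difference in log2 fold change, cKO minus WT, was -3.95 (SE 0.846, edgeR adjusted p = 0.0354). The 12 other clusters with an interaction fit had 0 genes called by edgeR, with 29 in Cluster 5 to 280 in neurons at an unadjusted p under 0.05, and the interaction was not fitted with DESeq2.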

How the data were processed

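Raw UMI counts per gene and cell, deposited by the authors with a table of cells, libraries and clusters, were read for 55487 gene symbols. According to the study's methods, cells with few genes or high mitochondrial content had been removed by the authors. In the file the fewest genes in a cell were 201 and the highest mitochondrial share was 25.0%. How doublets were treated is not given in the sources used here, and no doublet caller was run. Matrix sums equalled the cell table in all 18203 cells.

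UMIs were summed per mouse and cluster where a mouse had 10 or more cells. EdgeR 4.0.16 (TMM, filterByExpr with a minimum count of 10 and minimum total of 15, robust quasi-likelihood fit, two-sided) compared 14 d with 7 d without other terms, with Benjamini-Hochberg adjustment over all genes of a cluster and a threshold of 0.05. Clusters 16 and 17 had too few mice. Normalized CPM use TMM library sizes. DESeq2 1.42.0, R 4.3.3, Python 3.11.15, pandas 2.3.3, numpy 2.4.6, scipy 1.17.1 and matplotlib 3.10.9 were also used, and the fits were checked on simulated data. The batch number in the cell table equals the replicate number in every mouse, and correlations of residual levels between same-numbered replicates of different groups ran from 0.0515 to 0.397 over 11369 genes, so a replicate block was an alternative. Coordinates come from the GENCODE annotation of GRCm38, matched by symbol.

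Genes were named by a rule. It took up to 6 called genes in each direction without overlap in each cluster and called members of functional lists. It also took a set of genes for each cell type (11 in astrocytes, 7 in microglia, 3 in endothelial cells, 2 in fibroblasts) whether called or not. Most of that set are named in the study's text, but Spp1, Gpnmb, Flt1, Kdr and Cldn5 are not. Further list members and other genes were named after their values were seen. The mice, lists and tests were chosen with earlier results of these data known. Lists are described by counts and medians, without a test.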

Additional observations from a re-analysis of the deposited data

Results flagged for a closer look

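In 218 groups of 4 mice, the gap between the most extreme mouse and its nearest neighbour was measured against the range of the group, and by Dixon's test at the 95% level a mouse stood apart in 15 of them. Chance puts about 1 in 20 groups apart.

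The values that stood apart most often came from WT replicate 1 at 14 d. In its Cluster 6 microglia, Apoe (35398 CPM), Tyrobp (5664), Trem2 (2132) and Cd68 (663) were each far above the other 3 mice at 14 d, which had at most 9968, 1661, 1134 and 337. In its Cluster 10 microglia, Tyrobp (11565 CPM) and Trem2 (3308) stood above others at no more than 3883 and 1659.6. In its Cluster 7 astrocytes S100b was also highest, at 636 CPM against 402 or less.

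In Cluster 7, Chst11 was highest in WT replicate 2 at 7 d (351 CPM, others up to 174) and Cntn1 was lowest in WT replicate 1 at 7 d (1276, others from 1558). In Cluster 4 oligodendrocytes, Idi1 was lowest at 7 d in cKO replicate 1 (72.9 CPM, others from 108) and Insig1 was lowest at 14 d in WT replicate 2 (42.4, others from 78.4). Igfbp3 in endothelial cells was highest at 14 d in cKO replicate 1 (11.9 CPM, others up to 3.77), and Igf1 in neurons was highest at 7 d in cKO replicate 2 (18.8 CPM, others up to 2.99).

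Schwann cells made up 6.77% of the cells of cKO replicate 2 at 7 d and at most 1.08% of those of the other 7 d mice. Cluster 2 made up 35.8% of the cells labelled as astrocytes in cKO replicate 1 at 14 d, and 25% to 26.6% in the other 14 d mice. For Gm48606 in Cluster 7 the change from 7 d to 14 d differed between the genotypes by -3.95 on the log2 scale, which an interaction term in edgeR tested (adjusted p = 0.0354).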

How the results depend on the processing

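Counts of called genes were small in every fit, and the alternatives moved them. With DESeq2 they were 1, 2, 17 and 1 in Clusters 1, 3, 5 and 11, 3 in Cluster 14 and 0 in Cluster 15. With library totals in place of TMM, Cluster 3 had 6 and Cluster 14 had 5. Without a filter on low counts Clusters 1 to 13 had 42, 3, 5, 13, 2, 8, 10, 9, 4, 41, 8, 8 and 3 calls, of which 24, 0, 4, 6, 0, 5, 3, 4, 1, 19, 2, 1 and 1 were genes that the filter had kept, and Clusters 14 and 15 had 13 and 0. With genotype as a covariate Clusters 2, 10 and 14 had 1, 0 and 8. With replicate number as a replicate block Clusters 2, 10, 11, 12, 13 and 14 had 4, 0, 2, 1, 1 and 2. A covariate for the animal number series, chosen after seeing the data, gave 1, 0 and 0 in Clusters 7, 10 and 14. One fit of all conditions gave 9 and 13 in Clusters 7 and 14, and the conditions of the cell names gave 0 and 4 in Clusters 10 and 14. In the later-numbered mice Cluster 10 had 0, cells with 1000 UMIs or more gave 2 in Cluster 12, and 30 cells per mouse gave 8 in Cluster 13. Apart from the filter, whose added genes were in part not tested with it, the cause was not tested.

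Leaving out each mouse in turn gave 0 to 8 calls in Clusters 1 and 2, 0 to 11 in Clusters 3 and 13, 0 to 1 in Clusters 4, 5, 6 and 12, 0 to 2 in Clusters 7 and 10, 0 to 9 in Cluster 14 and 0 in Clusters 8, 9 and 11. Shares ranged from -0.718 to 0.313 points in Cluster 9, -0.939 to 1.54 in Cluster 10, -0.122 to 0.658 in Cluster 13, -0.809 to 0.650 in Cluster 14, -1.66 to 0.597 in Cluster 15 and -0.719 to 0.0037 in Cluster 16.

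In the later-numbered mice the differences in share turned to -0.965, -0.521, 0.566 and 0.435 points in Clusters 2, 5, 6 and 11, and to -0.673 for Cluster 2 among astrocytes. In cells with 1000 UMIs or more they turned to 0.781, 1.66, -5.16 and -1.52 in Clusters 6, 7, 10 and 13, to -6.72 for Cluster 10 among microglia and to -10.5 for Cluster 5 among astrocytes. With the conditions of the cell names they turned to -0.223 in Cluster 2 and 0.676 in Cluster 9. The replicate block left the size of every share difference as it was. With the time label permuted within each replicate number, the exact permutation p for neurons was 0.0556, the smallest that test can give.

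Of 91 named gene and cluster pairs in the later-numbered mice, 12 turned: Gfap 0.35, S100b -0.11 and Vegfa 0.20 in Cluster 5, Gja1 -0.22 and Nrcam -0.021 in Cluster 7, Trem2 0.44 and Spp1 1.98 in Cluster 6, Cd68 0.60, Trem2 0.33 and Spp1 0.41 in Cluster 10, and Flt1 -0.039 and Cldn5 0.087 in Cluster 1. With the cell names 10 of 108 did: Gfap 0.11, S100b -0.39 and Cntn1 -0.16 in Cluster 2, Gfap 0.15, Chst11 0.0082, Cntn1 0.14 and Ryk -0.013 in Cluster 7, Cd68 0.041 and Trem2 0.046 in Cluster 10, and Ccl12 0.12 in Cluster 6. Others kept their sign with the cell names but came nearer to 0, among them Meg3 0.78 and Aplnr -0.77 in Cluster 1. In Cluster 10 they included Ifitm3 -0.81, Tap1 -0.31 and H2-K1 -0.096. Mfge8 0.31 in Cluster 7, Gm36988 -1.87 in Cluster 11 and Nrcam 0.39 in Cluster 2 also came nearer. So did Fos 0.69 and 1.47 in Clusters 4 and 8, C4b 0.74, 0.68 and 1.14 in Clusters 3, 4 and 8, and Tyrobp 0.33 in Cluster 3. DESeq2 turned 2 of 108 (Aqp4 0.076 in Cluster 2 and Nrcam -0.021 in Cluster 7). The replicate block turned 3 of 107 (Gfap 0.061 and Aqp4 0.14 in Cluster 2, Fn1 -0.25 in Cluster 14) and genotype as a covariate 2 of 107 (Apoe -0.10 in Cluster 6, Fn1 -0.086 in Cluster 14).

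Leaving out 1 mouse turned further values, with ranges in Cluster 2 of -0.25 to 0.35 for Gfap, -0.29 to 0.42 for Aqp4 and -0.51 to 0.28 for Gja1, and in Cluster 5 of -0.68 to 0.022 for Gfap and -0.48 to 0.013 for Vegfa. In Cluster 7 they were -0.053 to 0.49 for Gja1, -0.70 to 0.11 for Chst11, -0.071 to 0.085 for Nrcam and -0.019 to 0.31 for Vegfa. In Cluster 6 they were -0.21 to 0.39 for Cd68, -0.86 to 0.97 for Apoe, -0.50 to 0.093 for Trem2, -0.41 to 0.52 for Tyrobp and -2.72 to 0.0082 for Spp1, and in Cluster 10 -0.54 to 0.080 for Cd68, -0.30 to 0.56 for Apoe, -0.40 to 0.19 for Trem2 and -0.24 to 0.52 for Tyrobp. They were -0.0010 to 0.070 for Flt1 and -0.14 to 0.081 for Cldn5 in Cluster 1 and -0.79 to 0.89 for Fn1 in Cluster 14. The cause was not tested.

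Clusters 12, 13 and 15 had no fit in the later-numbered mice, which in Cluster 14 are those of the fit without WT replicate 1 at 7 d, with 1 mouse at 7 d. Cluster 15 had none with a covariate, a block or a mouse left out, and Clusters 12, 14 and 15 none at 30 cells per mouse, since too few mice remained. Depth limits what can be seen for low-count genes, and 2 mice at 7 d had medians of 414 and 548 UMIs per cell. A gene that missed the threshold is not shown to be equal at 7 d and 14 d.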
